A study of Mus musculus with 16 samples.

Results

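The comparison set the effect of a permanently active form of the transcription factor CREB against the effect of a blocker of CREB in the mouse hippocampus, gene by gene, to find genes that the 2 transgenes moved in opposite directions and genes that they moved alike. It used 12 of the 16 arrays of the study, chosen by their labels: 3 of VP16-CREB mice after 3 weeks without doxycycline (dox), 3 of their control littermates, 3 of A-CREB mice and 3 of their control littermates, all from mice 6 weeks old. The VP16-CREB mice, called bitransgenic in the series design, carried the tetO-VP16-CREB transgene on C57BL/6J and were raised on dox, which keeps the transgene off until the drug is taken away. The A-CREB mice are labelled TetO-A-CREB-95, with C57BL6 F1/J in the genotype label and C57BL/6J in the strain label, and were raised with no dox. The controls of each line were wild-type littermates on the same dox regimen. The promoter that drives the tTA transactivator is not given in the sources used here. Each array is described as holding RNA pooled from 3 to 4 mice of equal age, sex and genotype, so every replicate was a pool. Nothing in the labels says that pools of the same number belong together. Per the series design, the A-CREB arrays came from a data set deposited separately, so transgene, data set, dox history and time under expression cannot be told apart between the 2 lines. Each line was therefore compared with its own littermates first, and the 2 comparisons share no control array.

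CREB binds a short DNA element, the cAMP response element (CRE), and turns on its target genes when kinases that answer to cAMP and calcium phosphorylate it. In hippocampal neurons it links synaptic activity to the transcription of immediate early genes, neuropeptides and survival factors, and it is known for its part in long-term memory and in neuronal survival. VP16-CREB joins CREB to the activation domain of a viral protein and so activates CRE genes without phosphorylation. A-CREB is a dominant negative protein in which an acidic stretch replaces the DNA-binding region, so that it pairs with CREB through the leucine zipper and keeps it off DNA. Opposite movement would thus be looked for among CRE-driven genes first, while glial and immune genes respond to many kinds of disturbance in nervous tissue.

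The values were array intensities, the mean of each array after trimming was 500 on all of them, and 27044 probe sets (sets of short probes that read 1 transcript) of 12732 named genes passed the filter on low intensities. An effect is the mean log2(intensity + 10) of the transgenic pools minus that of their littermates, and the contrast is the VP16-CREB effect minus the A-CREB effect, each with its SE from limma over 16 arrays. A probe set was called at a Benjamini-Hochberg adjusted p under 0.05 over all 27044. The hippocampal markers Prox1 and C1ql2 of dentate granule neurons were read on every array, at 151 to 413 and 263 to 1255. Median intensities were 119 to 130 on the VP16-CREB cohort and 75.3 to 90.3 on the A-CREB cohort. The actin signal from the 3' end over that from the 5' end, which grows as RNA degrades, was 1.36 to 1.61 in the first cohort and 1.37 to 2.48 in the second, where A-CREB pool 3 was highest. Xist, expressed in females, was at 34.5 in control pool 1 and 63.4 in A-CREB pool 1, against 3611 to 6231 on the other 10 arrays, so pool 1 of each A-CREB cohort group stood apart from the rest in this sex-linked gene. Eif2s3y, a gene of the Y chromosome, read 487 and 298 in these 2 pools and 86.5 in control pool 2 of the A-CREB cohort. That control pool also read Xist at 3611, so both genes were read in the same pool, although pools are described as of equal sex. On the other arrays of the contrast Eif2s3y read 0.609 to 23.7. No pool of the VP16-CREB cohort was low in Xist, so the cohorts differed in this too. The labels do not name the sex of any pool. No 2 arrays held identical values.

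The transgene itself was sought first, through the probe sets of Creb1. The Creb1 probe set with the largest VP16-CREB effect read 67.3, 32.2 and 61.2 in the controls and 1140, 1097 and 1266 in the VP16-CREB pools, and in the A-CREB cohort 52.7, 85.1 and 29.6 in the controls and 20.3, 74.3 and 30.5 in the A-CREB pools. The VP16-CREB pools stood far above their littermates, while the A-CREB pools and theirs overlapped, and the contrast was 4.65 ± 0.63 (SE, adjusted p = 0.00299 by limma). A further probe set rose by 2.27 on the log2 scale with VP16-CREB and was higher by 0.81 with A-CREB (unadjusted p = 0.0408), and the other 3 Creb1 probe sets had VP16-CREB effects from -0.22 to 0.14. Whether these probe sets read the transgene or the endogenous Creb1 was not tested. The line of the A-CREB pools is taken from the labels. Crem, a CREB relative whose inducible repressor form is itself driven by CREs, rose with VP16-CREB at 1 of its 2 probe sets (1.06 ± 0.22, adjusted p = 0.0140), with A-CREB effects of 0.07 and 0.12 and no call in the contrast. Of the 12 tested genes of the CREB family and its coactivators, read at their brightest probe set, VP16-CREB raised 1 and lowered 1, and none passed an unadjusted p of 0.05 with A-CREB.

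The contrast was called at 240 probe sets, of which 224 were higher with VP16-CREB than with A-CREB (0.828% of those tested, 175 genes) and 16 lower (0.0592%, 9 genes). The 2 sides of the contrast were very unequal. VP16-CREB raised 886 probe sets (3.28%) and lowered 176 (0.651%), whereas limma called 0 (0%) for A-CREB, where the smallest adjusted p was 0.0801 and 1171 probe sets (4.33%) had an unadjusted p under 0.05, 619 of them higher (2.29%) and 552 lower (2.04%). Of the 224 contrast calls that were higher, 220 were themselves raised by VP16-CREB, and the median effects were 2.15 with VP16-CREB and 0.165 with A-CREB. A-CREB effects were above 0 at 144 of the 224 and below 0 at 80, with 52 and 12 past an unadjusted p of 0.05. A called contrast therefore did not mark opposite movement as such, since a large VP16-CREB effect beside a small A-CREB effect of either sign was enough. The count of contrast calls fell to 147 without control pool 1, 152 without control pool 3, 129 without VP16-CREB pool 2 and 114 without VP16-CREB pool 3 of the VP16-CREB cohort, and to 159 without A-CREB pool 3. The VP16-CREB calls, 1062 in all, fell to 675 without control pool 1, 706 without control pool 3, 675 without VP16-CREB pool 2 and 584 without VP16-CREB pool 3, and the A-CREB calls numbered 4 without control pool 3, 2 without control pool 2 or A-CREB pool 1 and 1 without A-CREB pool 3 or VP16-CREB pool 1.

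**Figure D1:**
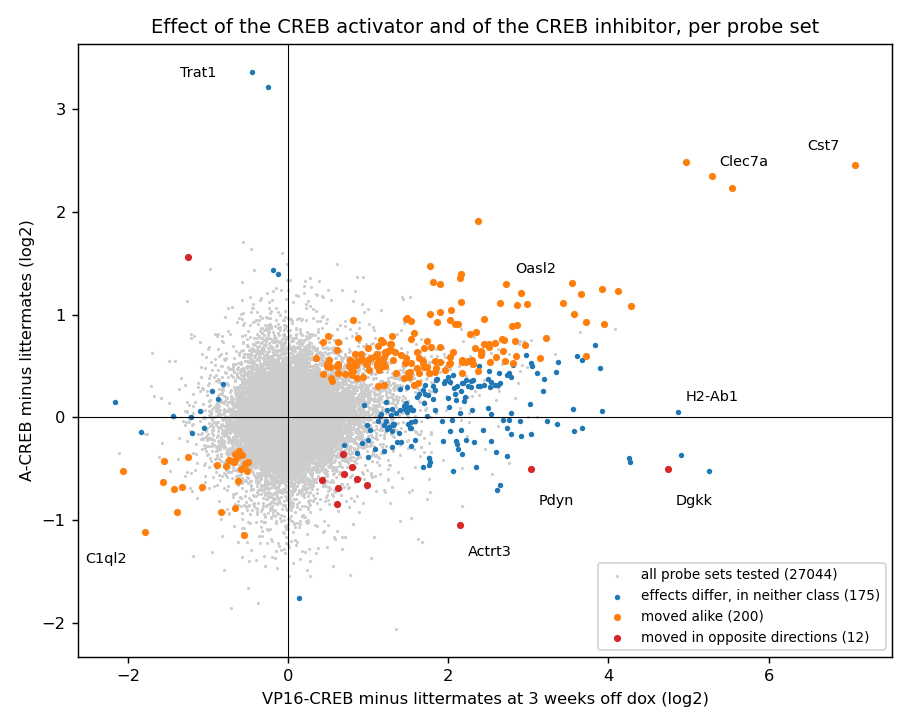
Scatter plot of the VP16-CREB effect at 3 weeks (horizontal axis, log2 difference from littermates) against the A-CREB effect (vertical axis, log2 difference from littermates) for 27044 probe sets. Grey points are all probe sets, and coloured points are the 12 moved in opposite directions, the 200 moved alike and the 175 whose effects differ but fall in neither class; the alike class fills the upper right, where VP16-CREB effects reach 7.08 and A-CREB effects 2.49 among its named genes.

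Genes moved in opposite directions were few. The class required a called contrast, an unadjusted p under 0.05 for each effect and opposite signs, and it held 12 probe sets: 11 of 10 named genes that were higher with VP16-CREB and lower with A-CREB (0.0407% of those tested), and 1 unnamed transcript that went the other way. The stricter demand that both effects be called on their own left 0. Of the 11, VP16-CREB alone was called at 8, the median effects were 0.799 and -0.597, and the A-CREB pools lay entirely below their littermates at 10, where 3.28% of all probe sets did. All 11 VP16-CREB effects separated the pools from the littermates, where 14.9% of all probe sets lay entirely above. These values chose the members and are given as a description. Among named genes, Grin2c (adjusted p of the contrast 0.0480) and Kyat1 (0.0470) lay just inside the class, and Lrp10 (contrast 0.90, adjusted p = 0.0542), Gsdmd (2.88, 0.0542) and Rab39 (1.18, 0.0550) just outside it. Their calls come from limma.

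Dgkk and Pdyn carried the largest opposite movement. Dgkk, which encodes diacylglycerol kinase kappa, an enzyme that turns diacylglycerol into phosphatidic acid (chrX:6779306-6948363 in GRCm38), read 43.4, 36.2 and 59.3 in the littermates of VP16-CREB mice and 1113, 1499 and 1912 with VP16-CREB. In the A-CREB cohort it read 72.8, 78.1 and 114 in littermates and 65.0, 48.5 and 63.4 with A-CREB. The groups did not overlap in either cohort, but all intensities of the A-CREB cohort were near or below 99.1, the median of all values, and the A-CREB pools stood close under their littermates. The effects were 4.74 ± 0.22 and -0.50 ± 0.22 (SE, unadjusted p = 0.0420), and the contrast was 5.24 (95% interval 4.56 to 5.91, adjusted p = 5.8e-06 by limma). Pdyn encodes prodynorphin, the precursor of the dynorphin opioid peptides and a textbook CREB target (chr2:129686549-129699938). It read 149, 146 and 106 in littermates and 1245, 1029 and 1195 with VP16-CREB, and 141, 117 and 121 in littermates and 103, 75.2 and 82.8 with A-CREB. Every VP16-CREB pool was above and every A-CREB pool below its littermates. The effects were 3.03 ± 0.19 and -0.50 ± 0.19 (unadjusted p = 0.0188), and the contrast was 3.53 (2.96 to 4.09, adjusted p = 5.07e-05 by limma). The contrast stayed called for both genes under all 26 alternative settings, but the class also asks for an unadjusted p under 0.05 with A-CREB, and Dgkk met the whole rule under 14 of the 26 and Pdyn under 23.

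Actrt3 encodes an actin-related protein (chr3:30597073-30599870). It read 57.7, 26.8 and 31.0 in littermates against 188, 179 and 227 with VP16-CREB, and 49.7, 61.3 and 63.4 in littermates against 27.3, 37.0 and 10.4 with A-CREB. The groups stood apart in both cohorts, although every A-CREB cohort value lay below the median of all values, where this kind of intensity is noisy. Its effects were 2.15 and -1.04 and its contrast 3.19 ± 0.40 (adjusted p = 0.00198). The promoters of Actrt3 and of Kyat1, described below, are shown because they were the 2 of the 10 oppositely moved genes (20.0%) whose 250 bases before the start held the core of a CRE, TGACG on either strand (written CGTCA where it reads on the other strand). The core stood in 30.2% of tested genes with a promoter and in 19.8% of all promoters' genes, so the share of 20.0% among the 10 genes lay close to the latter and below the former. The sequences are from RefSeq (GRCm38.p6), 5' to 3' towards the gene, and the capitals mark the core.
Actrt3, chr3:30599871-30600120, minus strand: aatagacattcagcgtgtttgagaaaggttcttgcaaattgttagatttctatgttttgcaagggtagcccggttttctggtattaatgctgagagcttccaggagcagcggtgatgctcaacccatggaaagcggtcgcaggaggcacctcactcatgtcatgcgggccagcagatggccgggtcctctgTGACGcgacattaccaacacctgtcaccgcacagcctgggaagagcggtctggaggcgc
Kyat1, chr2:30205848-30206097, minus strand: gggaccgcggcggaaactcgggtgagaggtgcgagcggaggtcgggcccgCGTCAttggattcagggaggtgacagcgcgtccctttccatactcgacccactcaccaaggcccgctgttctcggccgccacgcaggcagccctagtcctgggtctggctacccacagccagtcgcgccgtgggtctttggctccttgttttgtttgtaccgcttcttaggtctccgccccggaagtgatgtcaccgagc
In Actrt3 the core began 59 bases before the start and in Kyat1 200 bases before it. No TGACG core was in the windows of Dgkk and Pdyn, which says only that these letters are absent from these windows.

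The other oppositely moved genes had effects of at most 0.99 in size on the log2 scale. Kcng4, which encodes a modulatory subunit of voltage-gated potassium channels, read 106, 125 and 114 against 189, 163 and 199 with VP16-CREB and 129, 118 and 105 against 89.8, 65.8 and 56.0 with A-CREB. No pools overlapped in either cohort, and its effects were of like size, 0.63 and -0.68, with a contrast of 1.31 ± 0.23 (adjusted p = 0.0143) that held under 21 of 26 settings. Slc38a10, an amino acid transporter of the SNAT family, was read by 2 probe sets that gave like values. At the brighter one, littermates read 950, 1219 and 1114 and VP16-CREB pools 1794, 2036 and 2155, while littermates of A-CREB mice read 1915, 1252 and 1720 and A-CREB pools 1252, 1041 and 906. The A-CREB pools overlapped with their littermates there, where a control and an A-CREB pool both read 1252, and did not at the dimmer probe set, with contrasts of 1.46 (adjusted p = 0.0265) and 1.28 (adjusted p = 0.0358).

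Grin2c encodes an NMDA receptor subunit. It read 241, 301 and 274 in littermates against 443, 396 and 510 with VP16-CREB, and 204, 175 and 312 against 166, 132 and 152 with A-CREB. Every A-CREB pool was below every control, though the controls spread widely, and the contrast was 1.25 ± 0.27 (adjusted p = 0.0480). Wnt2, a secreted ligand of the Wnt pathway, read 99.1, 126 and 125 against 187, 144 and 148 with VP16-CREB and 168, 157 and 146 against 100, 101 and 97.0 with A-CREB. Its A-CREB effect (-0.61) exceeded its VP16-CREB effect (0.42), which was not called on its own, and the contrast was 1.03 ± 0.21 (adjusted p = 0.0389). Arhgef19, a guanine nucleotide exchange factor, also had the larger effect with A-CREB, at 0.61 and -0.84, with pools of 226, 184 and 215 in littermates and 149, 122 and 75.7 with A-CREB.

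Prcp, a lysosomal carboxypeptidase, went from 115, 151 and 133 to 240, 271 and 309 with VP16-CREB and from 149, 124 and 158 to 86.6, 118 and 65.4 with A-CREB, and its contrast was 1.64 ± 0.35 (adjusted p = 0.0469). Kyat1, a kynurenine aminotransferase, had effects of 0.69 and -0.35, the smallest A-CREB effect of the class. Its probe set bears a suffix with which Affymetrix marks probes that may match other transcripts too. These members depended on the settings too: the contrast was called for Arhgef19 under 13 of 26, for Prcp under 9 of 25, for Kyat1 under 8 and for Grin2c and Wnt2 under 6 of 26. The signs of both effects were kept for all 12 under every setting, which their choice at an unadjusted p on these arrays made likely. The class itself held 5 probe sets without control pool 1 of the VP16-CREB cohort or without VP16-CREB pool 3. It held 6 without that cohort's control pool 3 or VP16-CREB pool 2, 22 without control pool 1 of the A-CREB cohort and 23 without A-CREB pool 1. With both pools numbered 1 of the A-CREB cohort left out, which removed the pools low in Xist, it held 33, 7 of them among the 12.

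The unnamed transcript was lower with VP16-CREB, at 237, 187 and 193 in littermates against 56.0, 116 and 78.3, and higher with A-CREB, at 3.71, 4.59 and 2.83 against 21.7, 39.8 and 32.1. The groups did not overlap, and the contrast was -2.81 (adjusted p = 0.00182), but all A-CREB cohort values were far below the median of all values and the 2 cohorts' littermates differed in level. It carries no gene symbol in the platform annotation used here.

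**Figure D2:**
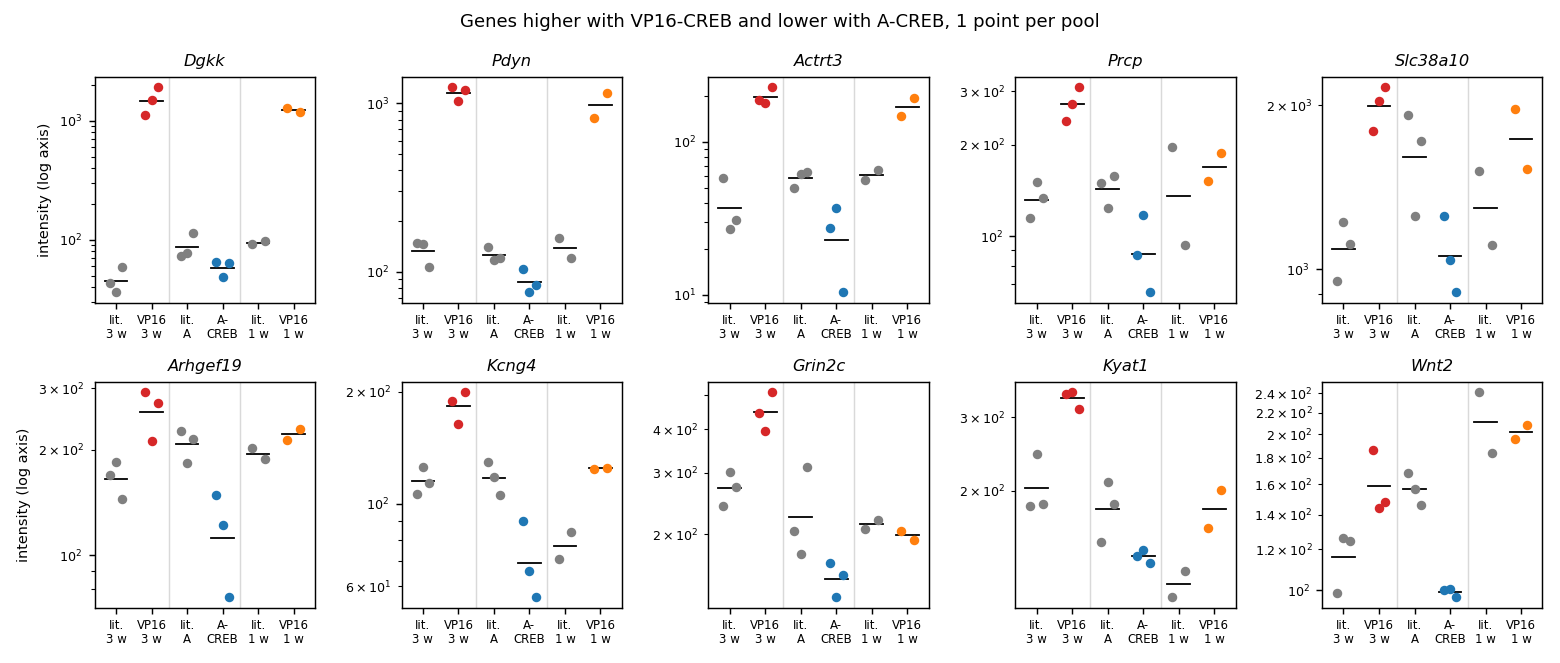
Intensity (log axis) of the genes moved in opposite directions, with 1 point per pool in the littermates (grey) and transgenic mice of VP16-CREB at 3 weeks, A-CREB and VP16-CREB at 1 week, and a black bar at the back-transformed mean of log2(intensity + 10). At 3 weeks the VP16-CREB pools lie above their littermates in every gene panel, and the mean of the A-CREB pools lies below that of theirs; Dgkk goes from 36.2 to 59.3 up to 1113 to 1912 with VP16-CREB and from 72.8 to 114 down to 48.5 to 65.0 with A-CREB.

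As arrays that the contrast did not use, the VP16-CREB and littermate pools at 1 week off dox (2 pools each, mice 3 weeks old) gave separate values for these genes. Dgkk had an effect of 3.58 (adjusted p = 0.000116) and Pdyn of 2.73 (adjusted p = 0.000138), and these were the 2 of 11 probe sets called higher at 1 week, where 0.218% of all were. Actrt3 (1.34), Kcng4 (0.63) and Kyat1 (0.56) had effects above 0 with no call. In all, 9 of the 11 were above 0, beside 53% of all probe sets tested, and 5 had an unadjusted p under 0.05, beside 3.67%. Wnt2 (-0.06) and Grin2c (-0.10) were near 0. The A-CREB arrays had no such second set here.

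Genes moved alike were more numerous. This class required a call for the mean of both effects, an unadjusted p under 0.05 for each and the same sign, and it held 200 probe sets: 172 of 140 named genes higher in both lines (0.636% of those tested) and 28 of 22 genes lower in both (0.104%). The mean of both effects was called higher at 525 probe sets (1.94%) and lower at 80 (0.296%), and again 0 members had both effects called. The 605 calls for the mean fell to 366 without VP16-CREB pool 3 and 319 without both pools numbered 1 of the A-CREB cohort. VP16-CREB effects were the larger at 163 of the 172 and 24 of the 28, and the contrast was called too for 52 of the 172. At the same unadjusted p for each effect, without a call, 214 probe sets were higher in both, 57 lower in both and 49 opposite, 32 of those higher with VP16-CREB. The 2 p-values of a probe set share 1 estimate of its spread. Among named genes Itih5, Tifa and Lefty1 lay just inside the class (adjusted p of the mean 0.0498 each) and Spindoc, Sntb2 (0.0510 each) and Tnk2 (0.0525) just outside.

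Of the 140 genes higher in both lines, 41 stood on the 8 lists of microglia, phagocyte, reactive astrocyte, interferon, MHC class I, MHC class II, complement and chemokine genes, which hold 118 (0.927%) of the 12732 tested genes, among them 13 interferon response genes, 8 microglia and macrophage markers, 8 genes of disease-associated phagocytes and 8 of reactive astrocytes, and 96 stood on no list. The lists of general astrocyte, oligodendrocyte and oligodendrocyte precursor markers held none of them. In these tissue samples, more cells of a type and more RNA per cell cannot be told apart. Cst7 encodes cystatin F, a protease inhibitor of activated phagocytes (chr2:150570415-150578944), and had the largest effect of the class. It read 6.55, 7.89 and 23.4 in littermates and 2906, 2245 and 3738 with VP16-CREB, and 5.79, 97.5 and 28.3 in littermates and 216, 278 and 153 with A-CREB. Pools were apart in both cohorts, and the effects of 7.08 ± 0.55 and 2.45 ± 0.55 also differed from each other, with a contrast of 4.63 (adjusted p = 0.0108). All its littermate values lay below 99.1, the median of all values, so the sizes are uncertain. The contrast ran from 3.71 to 5.33 over the 26 alternative settings. Clec7a, the beta-glucan receptor dectin-1, read 66.0, 113 and 35.5 in littermates and 410, 462 and 272 with A-CREB, beside 49.9, 8.15 and 49.2 and 1075, 1712 and 2040 in the VP16-CREB cohort. Its effects were 5.29 and 2.35 and its contrast 2.94 (adjusted p = 0.0491).

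The chemokines Ccl3 and Ccl6 followed the same order. Ccl3 read 3.63, 3.28 and 2.07 against 554, 549 and 695 with VP16-CREB and 5.57, 90.3 and 3.02 against 126, 138 and 94.4 with A-CREB. Control pool 2 of the A-CREB cohort, at 90.3, came close to the lowest A-CREB pool, and this control was the highest of its group for Cst7, Clec7a, Ccl6 and Glycam1 too. Glycam1, a mucin-like ligand of L-selectin, read 8.99, 142 and 2.67 in littermates and 173, 239 and 131 with A-CREB, so that the groups overlapped. Over the microglia and macrophage list the median log2 level against the littermates was 0.452, 0.734 and 0.106 in A-CREB pools 1 to 3, and -0.0879, 0.424 and -0.335 in the control pools, each against the other 2. Over the interferon list it was 0.458, 0.777 and 0.459 in A-CREB pools and -0.348, 0.293 and 0.0814 in controls. Without control pool 2 and A-CREB pool 3, an omission chosen after seeing the data, the alike class held 394 probe sets. It held 129 without control pool 1, 119 without A-CREB pool 1, 127 without A-CREB pool 2 and 91 without both pools numbered 1.

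Interferon-inducible genes made up the largest listed group of the class. Oasl2, an antiviral protein of the oligoadenylate synthetase family (chr5:114896926-114912245), read 84.7, 108 and 89.8 in littermates and 547, 748 and 749 with VP16-CREB, and 120, 144 and 140 in littermates and 324, 380 and 333 with A-CREB. The groups were well apart in both cohorts. The effects were 2.72 ± 0.19 and 1.30 ± 0.19, and its A-CREB effect (unadjusted p = 1.18e-05) was among those with the smallest adjusted p, 0.0801. Ifit1, which binds viral RNA, had effects of 2.15 and 1.36, Mx1, an antiviral GTPase, 1.77 and 1.47, and Ifi209 1.81 and 1.31. For these 3 the contrast was within its error, with intervals of -0.51 to 2.09, -0.97 to 1.58 and -0.26 to 1.25, which leave room for a VP16-CREB effect well above the A-CREB effect. Tlr1, a receptor for bacterial lipopeptides, read 4.96, 16.2 and 5.79 in littermates and 47.4, 89.2 and 48.0 with A-CREB, with effects of 2.38 and 1.91. The promoter of Ifit1 is shown because genes bound by interferon regulatory factors share a motif of GAAA, any 2 bases and GAAA again, searched on both strands. It stood in 15 of the 108 genes higher in both lines that had a promoter in the table (13.9%) and in 8 of 18 of the interferon list (44.4%), beside 3.05% of tested genes and 3.46% of all. None of the 10 oppositely moved genes held it. The capitals mark 2 matches, which read as TTTC, 2 bases and TTTC on this strand and begin 104 and 85 bases before the start.
Ifit1, chr19:34640639-34640888, plus strand: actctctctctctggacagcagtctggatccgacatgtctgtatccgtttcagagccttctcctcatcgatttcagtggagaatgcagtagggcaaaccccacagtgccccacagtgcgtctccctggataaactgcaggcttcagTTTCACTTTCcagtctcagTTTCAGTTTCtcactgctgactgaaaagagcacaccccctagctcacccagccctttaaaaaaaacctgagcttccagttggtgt

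Of the 22 genes lower in both lines, 4 were on the list of dentate granule neuron markers and 1 on that of CA1 pyramidal neurons, and 13 on none. These 2 lists hold 17 and 10 of the 12732 tested genes. C1ql2, a synaptic organiser secreted by granule neurons (chr1:120340582-120343174), read 1198, 1082 and 1049 in littermates and 263, 352 and 338 with VP16-CREB, and 670, 367 and 1255 in littermates and 335, 272 and 323 with A-CREB. The A-CREB cohort's littermates spread from 367 to 1255, with pool 2 close to the A-CREB pools, and the effects were -1.78 ± 0.31 and -1.11 ± 0.31. Lct, the lactase gene and a granule neuron marker, read 987, 807 and 999 in littermates and 757, 554 and 503 with A-CREB, with effects of -1.56 and -0.63. Doc2b, a calcium sensor of vesicle release, was lower at 2 probe sets, with effects of -1.07 and -1.38 against -0.68 and -0.92. Gabrd, the delta subunit of extrasynaptic GABA-A receptors, had effects of -0.89 and -0.47, and Bcl11b, a zinc finger transcription factor, -0.54 and -0.45. Igfbp4, a binding protein of insulin-like growth factors, had -0.63 and -0.61 with a contrast of -0.01 (interval -0.52 to 0.49). Efcab6 was lower by more with A-CREB (-1.14) than with VP16-CREB (-0.54), and its A-CREB pools read 73.2, 28.0 and 26.1 against 102, 94.9 and 94.2. Rasl10a, a Ras-like GTPase (chr11:5058128-5060385), was the only 1 of the 28 probe sets whose contrast was called, with 1148, 1146 and 1159 against 324, 245 and 245 with VP16-CREB, 966, 707 and 833 against 579, 708 and 462 with A-CREB, and a contrast of -1.54 (adjusted p = 0.0189).

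**Figure D3:**
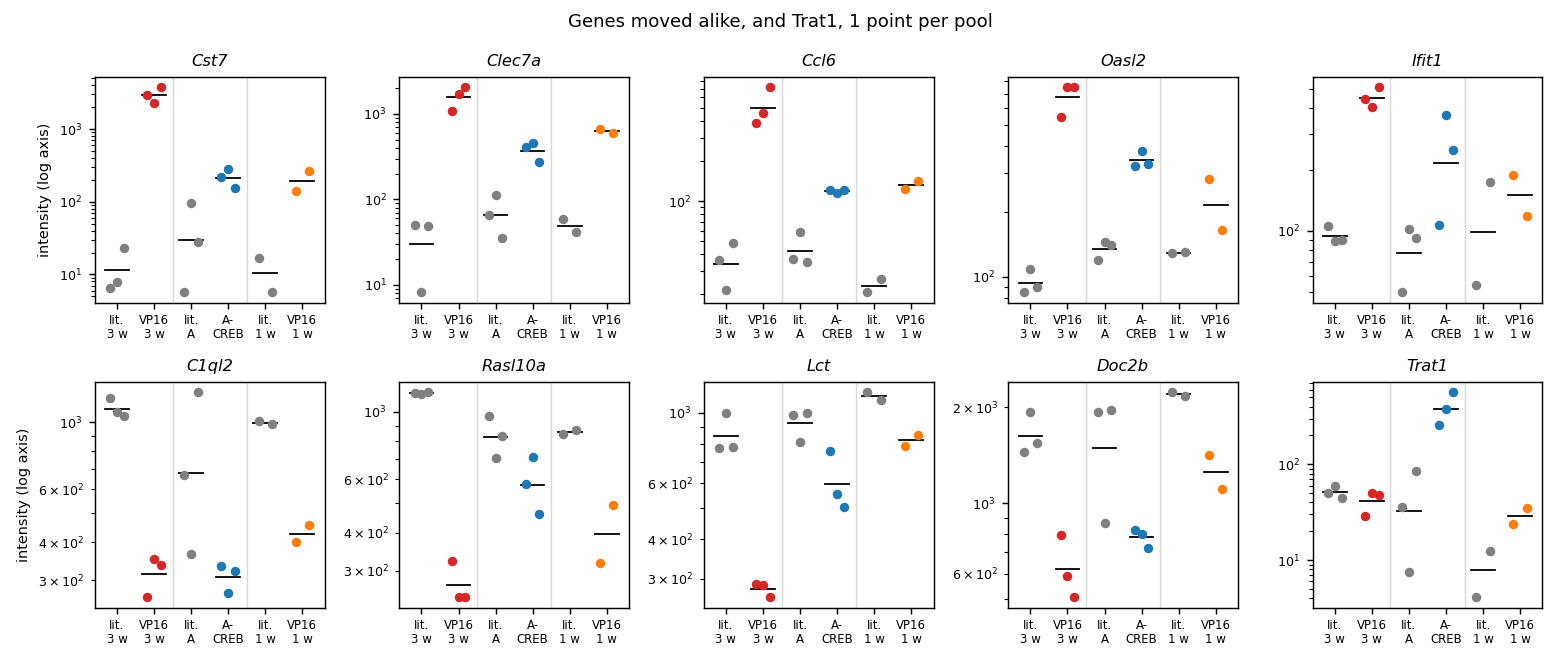
Intensity (log axis) of genes moved alike and of Trat1, with 1 point per pool in the littermates (grey) and transgenic mice of VP16-CREB at 3 weeks, A-CREB and VP16-CREB at 1 week, and a black bar at the back-transformed mean of log2(intensity + 10). The means of Cst7, Clec7a, Ccl6, Oasl2 and Ifit1 are higher in the transgenic pools of both lines and those of C1ql2, Rasl10a, Lct and Doc2b lower, while Trat1 is higher with A-CREB; for Oasl2 the A-CREB pools sit at 324 to 380 above littermates at 120 to 144.

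At 1 week off dox, in arrays outside the contrast, 162 of the 172 probe sets higher in both lines were above 0 with VP16-CREB and 22 were called higher (0.218% of all were), with a median of 0.681. Of the 28 lower in both, 24 were below 0 there and 12 had an unadjusted p under 0.05 with that sign, where 1.60% of all did, and the median was -0.467. At that time 5 probe sets in all (0.0185%) were called lower. The p-values behind these counts again share their estimate of the spread with the arrays that chose the members.

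The A-CREB effect followed the VP16-CREB effect in sign more than against it when read over all called probe sets. Among the 886 raised by VP16-CREB, the A-CREB effect was above 0 at 648 (73.1%, beside 50.6% of all tested), with a median of 0.172. At an unadjusted p under 0.05, 150 (16.9%) were higher and 8 (0.903%) lower, beside 2.29% and 2.04% of all tested. Among the 176 lowered, 43 (24.4%) were above 0, with a median of -0.112; 16 (9.09%) were lower and 1 (0.568%) higher. The median A-CREB effect rose with the size of the VP16-CREB effect, from 0.0554 for rises of up to 1 on the log2 scale to 0.216, 0.374 and 0.539 for rises of 1 to 2, 2 to 3 and above 3. By pool, the median over the 886 was 0.289, 0.213 and 0.0556 in A-CREB pools 1 to 3 and -0.137, 0.146 and 0.0191 in the controls, each against the other 2. A-CREB pool 3 lay within the range of the controls. Without both pools numbered 1 the median over the raised set was 0.0848, with 78 higher and 32 lower at the unadjusted p, and over the lowered set -0.0645. Without control pool 2 and A-CREB pool 3 the 2 medians were 0.302 and -0.201, without VP16-CREB pool 3 the first was 0.271, and without control pool 1 or control pool 2 of the A-CREB cohort the second was -0.0618 or -0.185. Across all 27044 probe sets the 2 effects had a Pearson correlation of 0.154 and a Spearman correlation of 0.0825, and across those called for VP16-CREB 0.492 and 0.480. Probe sets are not independent and share arrays and littermates within a line, so no p is given.

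**Figure D4:**
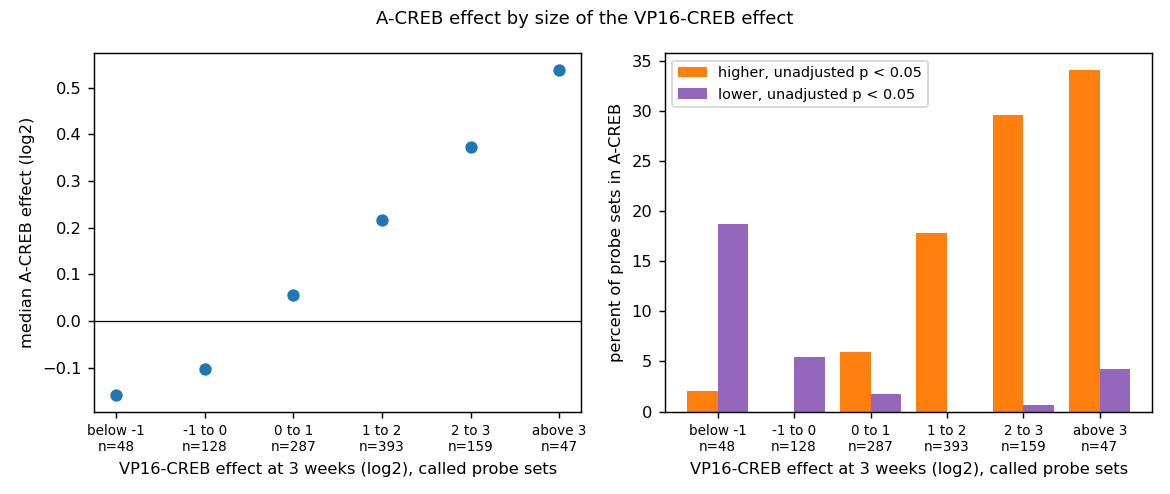
Median A-CREB effect (log2 difference from littermates) of the probe sets called for VP16-CREB, grouped by the size of their VP16-CREB effect (log2), with the number of probe sets in each group (left), and the percent of each group that was higher or lower with A-CREB at an unadjusted p under 0.05 (right, bars). The median goes from -0.159 in the 48 probe sets lowered by more than 1 to 0.539 in the 47 raised by more than 3. Of those 47, 16 were higher and 2 lower with A-CREB, beside 2.29% and 2.04% of all tested.

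A further set differed between the lines because VP16-CREB moved it and A-CREB pools stayed among their littermates. MHC class II genes display peptides to helper T cells. All 5 tested rose with VP16-CREB, 4 were called in the contrast (0.828% of all were called higher), and their median effects were 3.55 and 0.0567. H2-Ab1, a class II beta chain (chr17:34263227-34269418), read 29.1, 108 and 63.8 in littermates and 2001, 1894 and 2189 with VP16-CREB at its brightest probe set, and 86.4, 83.3 and 106 in littermates and 111, 115 and 68.0 with A-CREB. The A-CREB pools lay on both sides of their littermates, and the contrasts at the 3 probe sets were 4.81, 5.27 and 5.78 (largest adjusted p = 0.000432). Cd74, the invariant chain that escorts class II molecules, had effects of 3.67 and -0.10, and H2-Eb1 of 2.13 and -0.31. Class II genes resemble each other in sequence, so probes may be shared among them. The promoter of H2-Aa (effects 3.55 and 0.09, contrast adjusted p = 0.00210) is shown because class II promoters are known to carry a CRE-like element, the X2 box. Its 250 bases held the full CRE, TGACGTCA, which stood in 3.02% of tested genes and 1.77% of all promoters' genes and in 3 of the 151 genes higher in the contrast (1.99%). The capitals mark it, beginning 74 bases before the start.
H2-Aa, chr17:34287824-34288073, minus strand: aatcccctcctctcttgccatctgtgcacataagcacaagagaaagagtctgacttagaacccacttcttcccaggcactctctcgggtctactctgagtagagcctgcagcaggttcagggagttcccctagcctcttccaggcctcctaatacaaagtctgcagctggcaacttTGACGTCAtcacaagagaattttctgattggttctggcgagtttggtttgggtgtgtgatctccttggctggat

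Other genes of large VP16-CREB effect had A-CREB pools that overlapped with their littermates. Atf3, a stress-induced relative of CREB that binds the same element, read 13.6, 10.5 and 46.0 against 468, 342 and 550 with VP16-CREB and 66.5, 51.1 and 34.3 against 108, 19.1 and 59.0 with A-CREB. The A-CREB pools overlapped with their littermates, and the contrast was 3.86 (adjusted p = 0.0107). The p53 targets Pmaip1, a promoter of apoptosis, and Cdkn1a, an inhibitor of the cell cycle, had VP16-CREB effects of 2.78 and 2.43, A-CREB effects of 0.04 and -0.12, and contrasts of 2.74 and 2.55 (adjusted p = 0.00162 and 0.00307). They were the 2 of 21 apoptosis and p53 response genes called in the contrast, where 0.828% of all probe sets were called higher. Of 20 heat shock and unfolded protein genes 0 were called, which is near that share. Slc32a1, the vesicular GABA transporter of inhibitory neurons, rose from 1033, 1104 and 992 to 2346, 2431 and 2618 with VP16-CREB and read 1192, 1150 and 1192 against 1394, 1174 and 1166 with A-CREB. Its contrast was 1.16 ± 0.17 (adjusted p = 0.00513 by limma). Of the 18 interneuron markers 1 was called in the contrast, beside the same 0.828% of all. Tgfb1, a growth factor made by glia, had a contrast of 2.21 and Cxcl16, a chemokine, of 3.70, with A-CREB effects of -0.46 and -0.13 that did not pass.

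The 16 probe sets with a lower contrast were mostly genes that VP16-CREB lowered, called in that comparison at 12, with an A-CREB effect above 0 at 12. This count was small and unsteady: it was 3 without control pool 1 or control pool 3, 6 without control pool 2, 2 without VP16-CREB pool 2 and 5 without VP16-CREB pool 3 of the VP16-CREB cohort, and 9 and 6 without A-CREB pools 2 and 3. Lrrtm4, a synaptic adhesion protein of granule neurons, read 800, 813 and 782 against 208, 222 and 220 with VP16-CREB and 892, 439 and 564 against 542, 471 and 636 with A-CREB, and its contrast was -1.69 (adjusted p = 0.0335). Prox1, the transcription factor that sets granule neuron identity, had effects of -1.20 and -0.15, Epha7, an ephrin receptor, -1.21 and 0.00, and Cdh9, a cadherin of mossy fibre synapses, -0.81 and 0.33. For Cdh9 the A-CREB pools lay above all their littermates with an unadjusted p of 0.0782, so it fell outside the opposite class. The contrast stayed called under 15 of 26 settings for Epha7, 14 for Lrrtm4 and 10 each for Prox1 and Cdh9.

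Of the 16, 4 were not called for VP16-CREB, namely both probe sets of Trat1 and 2 unnamed transcripts with A-CREB effects of 1.44 and 1.40. Trat1, a T cell adaptor gene (chr16:48730774-48810547), had VP16-CREB effects of -0.44 and -0.25 with no call and stood higher with A-CREB at both of its probe sets. The first read 41.5, 1.37 and 55.7 in littermates and 248, 404 and 378 with A-CREB, and the second 35.8, 7.48 and 84.6 in littermates and 258, 380 and 565 with A-CREB. No pools overlapped. The A-CREB effects were 3.36 ± 0.53 and 3.21 ± 0.47 (unadjusted p = 2.32e-05 and 9.92e-06), and the contrasts were -3.80 and -3.46 (adjusted p = 0.0316 and 0.0262). In the VP16-CREB cohort the first probe set read 0.807 to 9.33 on all 6 arrays and the second 29.0 to 59.4. Among the 12 arrays only the A-CREB pools were above 99.1, the level that the filter asked for on at least 2 arrays. The contrast stayed called under 12 of 24 settings at the first probe set and 15 of 26 at the second. Trat1 was called for A-CREB alone under 3 of the 26 alternative settings at its second probe set and 1 at its first.

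Genes taken as CRE-driven were read from a list of 35 tested members. The list was chosen with earlier results of these data known. Its counts include Dgkk and Pdyn, whose windows held no TGACG core, so they are given as a description. VP16-CREB raised 13 of them and lowered 0, beside 3.28% and 0.651% of all probe sets. The contrast was called higher at 5 (Dgkk, Pdyn, Nfil3, Fosb and Chga), beside 0.828% of all probe sets. With A-CREB 1 was higher and 4 lower at an unadjusted p under 0.05 (beside 2.29% and 2.04% of all). Effects were below 0 at 21 of 35 with A-CREB, where 50.6% of all probe sets were above 0. The medians were 0.409 with VP16-CREB and -0.0811 with A-CREB. By pool the list median was 0.0398, -0.127 and -0.0599 with A-CREB and 0.107, -0.145 and -0.05 in its controls, each control against the other 2. The A-CREB values lay within the range of these control values. Setting a control against only the other 2 widens that range, so these values do not decide whether A-CREB moved the list. Among 28 immediate early genes, which neurons induce within minutes of activity, 4 rose with VP16-CREB, 2 were called in the contrast, 21 were below 0 with A-CREB and 2 of these had an unadjusted p under 0.05. By pool the median of the 28 was -0.0631, -0.289 and -0.0148 with A-CREB and 0.0673, -0.181 and 0.202 in its controls, each against the other 2, so the groups overlapped. Of 23 neuropeptides and granins, 6 rose, 2 were called in the contrast and 2 were lower with A-CREB at the unadjusted p. Medians over all tested probe sets were -0.0138 with VP16-CREB and 0.00313 with A-CREB.

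Fosb, an immediate early gene of the AP-1 family, read 144, 92.3 and 134 against 290, 303 and 568 with VP16-CREB and 147, 121 and 130 against 115, 120 and 132 with A-CREB. Nfil3, a basic leucine zipper repressor, read 101, 77.2 and 162 against 498, 402 and 524 and, in the A-CREB cohort, 235, 147 and 230 against 209, 116 and 242. Both rose with VP16-CREB, and their A-CREB pools overlapped with the littermates, with contrasts of 1.63 (adjusted p = 0.0391) and 2.16 (adjusted p = 0.0231). Chga, which encodes chromogranin A of dense core vesicles, had effects of 0.92 and -0.25. The promoters of Fosb and Nfil3 are shown as list members that differed between the lines and hold the CRE core near the start, 60 and 59 bases before it. The core stood in 21 of the 28 list members with a promoter (75%).
Fosb, chr7:19310046-19310295, minus strand: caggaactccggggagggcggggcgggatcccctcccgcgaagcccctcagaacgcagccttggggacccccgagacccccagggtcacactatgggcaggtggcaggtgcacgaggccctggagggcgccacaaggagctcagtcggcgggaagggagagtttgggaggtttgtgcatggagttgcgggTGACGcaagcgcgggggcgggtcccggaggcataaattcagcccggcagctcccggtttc
Nfil3, chr13:52981040-52981289, minus strand: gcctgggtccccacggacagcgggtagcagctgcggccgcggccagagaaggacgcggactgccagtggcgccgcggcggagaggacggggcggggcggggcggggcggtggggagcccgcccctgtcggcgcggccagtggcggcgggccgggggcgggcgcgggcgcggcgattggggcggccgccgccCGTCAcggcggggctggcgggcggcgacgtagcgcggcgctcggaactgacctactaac

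Over the lists of microglia, phagocyte, reactive astrocyte and interferon genes, the medians were above 0 in both lines and higher with VP16-CREB. The counts below stand beside 3.28% of all probe sets raised by VP16-CREB, 0.828% called higher in the contrast and 2.29% higher with A-CREB at an unadjusted p under 0.05. Of 24 microglia and macrophage markers, VP16-CREB raised 23 and the contrast was called higher at 14, while 21 were above 0 with A-CREB, 7 of them at the unadjusted p, with medians of 2.12 and 0.395. Trem2, a lipid receptor of microglia, had effects of 2.84 and 0.59. Of 20 genes of disease-associated phagocytes 18 rose, 10 were called in the contrast and 8 passed the unadjusted p with A-CREB, with medians of 2.25 and 0.453. Of 21 reactive astrocyte genes 18 rose and 7 were called in the contrast, with medians of 2.17 and 0.435. Gfap, the filament protein of reactive astrocytes, read 2155, 2049 and 1822 against 16760, 11370 and 13370 with VP16-CREB and 1900, 3257 and 3276 against 3814, 4043 and 3228 with A-CREB. Its A-CREB pools overlapped with the littermates at the probe set printed here. Gfap was still among the genes higher in both lines, with probe sets in that class under 12 and 23 of 25 settings. Of 24 interferon response genes 18 rose, only 4 were called in the contrast, 23 were above 0 with A-CREB and 12 of these passed the unadjusted p, with medians of 1.5 and 0.517. These lists overlap in members, and they were chosen with earlier results of these data known.

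Neuronal and support lists held few contrast calls. VP16-CREB lowered 12 of 17 dentate granule neuron markers (0.651% of all probe sets), and the contrast was called lower at 3 (0.0592% of all). With A-CREB 4 were lower at the unadjusted p (2.04% of all), and the medians were -1.20 and -0.162. Of 10 CA1 markers 0 were called for VP16-CREB and 2 were lower with A-CREB at the unadjusted p, with medians of -0.462 and -0.201. Of 24 glutamate receptor and postsynaptic genes 0 were called in any comparison, 19 were below 0 with A-CREB, 2 of them at the unadjusted p, and the medians were -0.375 and -0.140. All 12 oligodendrocyte markers were below 0 with A-CREB, at a median of -0.154, and none passed an unadjusted p of 0.05. Choroid plexus markers, a sign of how the tissue was cut, had medians of -0.659 and 0.00807 over 9 genes with 0 calls. By pool these markers ranged from -1.33 to 0.131 with VP16-CREB, from -0.509 to 0.826 with A-CREB and from -1.06 to 0.666 in littermates, each littermate pool against the other 2 of its group. Their part in other results was not tested. Of the 36 lists, 19 had no member called in the contrast. Of all probe sets, 0.828% were called higher in the contrast and 0.0592% lower. Among the other lists, the call was higher for 5 of 7 complement genes and 3 of 12 of MHC class I and antigen processing. It was also higher for 2 of 14 growth factors and receptors and 1 of 13 chemokines and cytokines, and lower for 2 of 30 axon guidance and adhesion genes.

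**Figure D5:**
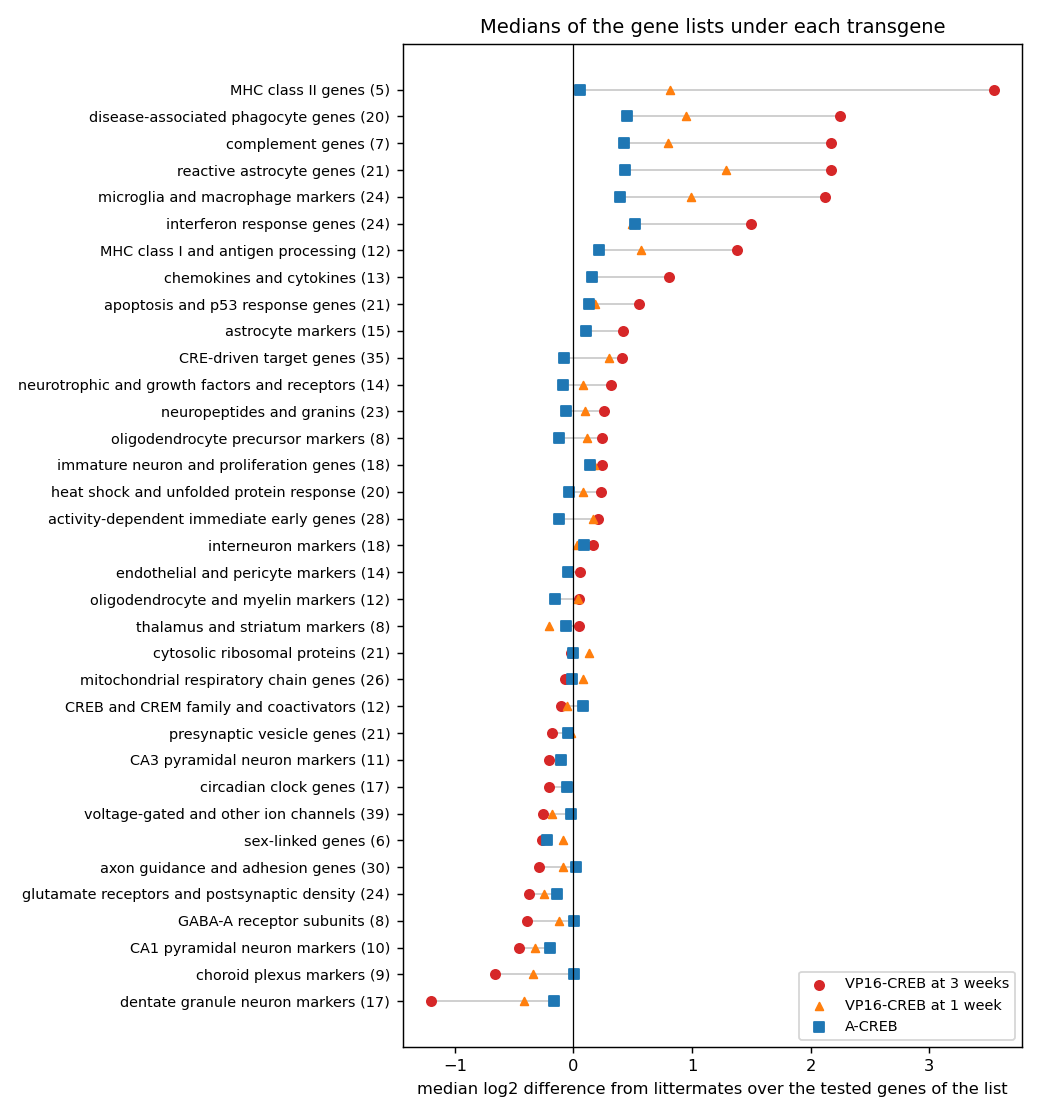
Median effect (log2 difference from littermates) of each gene list with at least 5 tested genes, for VP16-CREB at 3 weeks (circles), VP16-CREB at 1 week (triangles) and A-CREB (squares), with the number of genes in parentheses. The immune and glial lists have 3-week VP16-CREB medians of up to 3.55 with A-CREB medians of up to 0.517, and the CRE-driven list has medians of 0.409 and -0.0811.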

How the data were processed

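Mouse hippocampal RNA was measured on 16 arrays, each a pool. The deposited values were linear-scale intensities. The authors used MAS5 to make them, per the submitters' processing notes, with no version given. With 2% trimmed at each end every array had a mean of 500, so the authors had scaled them. Low MAS5 intensities are noisy.

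The 64 control probe sets were left out. Of the 45101 probe sets, the 27044 above the median of all values (99.1) on at least 2 arrays were kept (60.0%), of which 23141 had a single symbol in the platform annotation (34945 of all had 1, 932 had several and 9160 had none). Log2(intensity + 10) was fitted with limma 3.58.1 in R 4.3.3 (data.table, version 1.17.8), a coefficient per group over 16 arrays, with lmFit and eBayes (10 residual and 3.44 prior degrees of freedom, two-sided). Contrasts were the VP16-CREB effect, the A-CREB effect, their difference and their mean. Where nothing says pools came from separate litters, p-values measure the spread between these pools. The number of arrays limits the precision. Figures used Python 3.11.15, pandas 2.3.3 and matplotlib 3.10.9.

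Named were the 10 largest contrasts in each direction, up to 12 of each class by the smaller of their effects, A-CREB calls, up to 4 members per list called in the contrast (or the 2 brightest where none was) and Creb1 and Crem. Other genes, such as those at the class limits, were chosen after their values were seen. The classes, lists and members were chosen with earlier results of these data known. Of 36 lists, each is described by counts and medians with no set test. Alternatives were no pseudocount or 25, no filter or a filter on the mean, quantile normalization over all arrays or within a cohort, median centring, 12 arrays alone, trend and robust variances, array weights, a replicate block, 1 probe set per gene, each array left out, and both pools numbered 1 of the A-CREB cohort left out. The method was also run on simulated data with planted effects and independent noise. That simulation held no outlying pools and no noise shared among probe sets, so it does not show how the method fares on these pools.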

Additional observations from a re-analysis of the deposited data

Results flagged for a closer look

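The difference between the 2 lines was itself tested, as the contrast of the VP16-CREB and A-CREB effects in limma, and it was called at 240 probe sets. Among them, the effects were of opposite sign with an unadjusted p under 0.05 each at 12. The contrast on the log2 scale was 5.24 for Dgkk, 3.53 for Pdyn, 3.19 for Actrt3, 1.64 for Prcp, 1.46 and 1.28 for Slc38a10, 1.45 for Arhgef19, 1.31 for Kcng4, 1.25 for Grin2c, 1.04 for Kyat1 and 1.03 for Wnt2. It was -2.81 for the unnamed transcript. No group here had 4 or more pools, so single pools were not tested for standing apart.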

How the results depend on the processing

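The contrast called 240 probe sets, and 138 with no filter, 404 with array weights (86.6% higher, against 93.3%), 144 with a replicate block, 111 without control pool 2 and A-CREB pool 3, and 114 to 218 with 1 pool left out. VP16-CREB called 1062, and 4137 with array weights and 584 to 1154 with 1 pool left out. A-CREB called 0, and 3 with no pseudocount, 2 with a pseudocount of 25, 2 with 1 probe set per gene, 2 without both pools numbered 1, 3 without control pool 2 and A-CREB pool 3, and 0 to 4 with 1 pool left out. The mean of both effects called 605, and 1101 with array weights, 319 without both pools numbered 1 and 366 to 633 with 1 pool left out. The opposite class held 12, and 19 with quantile normalization, 34 with array weights, 19 with 1 probe set per gene, 33 without both pools numbered 1, 0 where both effects had to be called and 5 to 23 with 1 pool left out. The alike class held 200, and 91 without both pools numbered 1, 394 without control pool 2 and A-CREB pool 3, 0 where both effects had to be called and 119 to 275 with 1 pool left out.

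The median A-CREB effect over probe sets raised by VP16-CREB (0.172) was 0.109 with array weights, 0.0848 without both pools numbered 1, 0.302 without control pool 2 and A-CREB pool 3 and 0.117 to 0.271 with 1 pool left out. Over those lowered (-0.112) it was -0.0645, -0.201 and -0.185 to -0.0618 under the last 3 of these. The causes were not tested. No sign of a result reversed. Of the 212 members of both classes, all kept the signs of both effects under the 26 settings. Members were chosen for both effects past an unadjusted p on these arrays, so kept signs were largely given by that choice. Only 41 of 172, 5 of 28, 1 of 11 and 1 of 1 stayed in class under every setting. Deviations of equal-numbered pools correlated at -0.164, -0.228 and 0.218 in the VP16-CREB cohort and -0.0516, 0.407 and 0.265 in the A-CREB cohort. The best match had the same number for number 3 of the VP16-CREB cohort and numbers 2 and 3 of the A-CREB cohort. It had another number for the rest, so these values did not settle whether the numbers pair the pools. With the replicate block the opposite class held 11 and the alike class 181. Intensities near or below the median of all values, as for Actrt3, Dgkk and Tlr1 in the A-CREB cohort and for the littermates of Cst7 and Ccl3, limit the precision.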

Other observations

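Trat1, a gene higher with A-CREB and not with VP16-CREB, lies on chromosome 16 of GRCm38 among genes of which most were not read above the filter. Of the 5 genes on each side in RefSeq's order, Nectin3 and Dzip3 were tested. The A-CREB effect was -0.27 to 0.47 over 6 probe sets of Nectin3, a cell adhesion protein, and -1.16 to -0.16 over 5 probe sets of Dzip3, a ubiquitin ligase, with a smallest unadjusted p of 0.103 by limma. The other named genes called for A-CREB alone under at least 1 of the 26 alternative settings were, by number of settings, Oasl2 under 1, Ccl3, Glycam1, Efcab6 and Nav2 under 2 each, and Klf3 under 1. The A-CREB effects of Nav2, a neuron navigator protein, and Klf3, a zinc finger repressor, were -1.45 and -1.06 in the fit of all arrays. A further 5 unnamed transcripts were called in 1 or 2 settings.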
